A study of Oryza sativa with 6 samples.

Results

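In rice (Oryza sativa) roots, 69 loci had opposite levels in S-type lateral roots relative to nodal roots in the cultivars IR29 and Mulai. These loci were at least 2-fold higher in S-type than in nodal roots in one cultivar and at least 2-fold lower in the other, on values with 1 added. In each cultivar the larger of the S-type and nodal values had to be at least 30. Of the 38042 loci of the deposited table, 15159 met this minimum in both cultivars, and 69 of them (0.455%) met the rule. In 50 loci (0.33%) the S-type value was the higher one in IR29 and the lower one in Mulai, and in 19 loci (0.125%) it was the reverse. The S-type and nodal values chose these loci, so their folds are a description and carry no test. The L-type libraries were not used in the choice.

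Rice bears several kinds of root. Nodal roots emerge from the stem nodes and form the framework of the root system, and lateral roots branch from them and hold most of the absorbing surface. S-type laterals are short, thin and do not branch, whereas L-type laterals are longer and thicker and can branch again. Salt enters the plant through its roots.

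The libraries were made from S-type, L-type and nodal roots of IR29, labelled salinity sensitive, and of Mulai, labelled salinity tolerant, with 1 library for each of the 6 combinations. The labels name no salt treatment, plant age, genotype other than the cultivar, or pooling of plants. No combination had a replicate, so no difference between 2 libraries could be tested, and the intervals below cover counting error only. The labels equate the libraries of each cultivar with a separate earlier set of records, so cultivar and batch cannot be told apart. The table gives no gene names, and the loci are therefore described by their values, 4 of them with an identifier. For the same reason the labelled root types could not be checked against marker genes. In bulk tissue, fewer cells of a type and less RNA per cell cannot be told apart.

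The IR29 libraries held 4083173 (S-type), 3891153 (L-type) and 4253677 (nodal) reads, and the Mulai libraries 6246649, 5631504 and 7904454 in the same order. Values are scaled counts, in which 1 read was worth between 0.601 units (Mulai nodal) and 1.5 units (IR29 S-type). Across the 15159 loci the log2 values of IR29 and Mulai correlated at r = 0.90 between the S-type libraries and at r = 0.92 between the nodal libraries, but at r = 0.78 between the L-type libraries. The IR29 L-type library had values under 10 in 5.1% of these loci, against 1.09% in the Mulai L-type library. Each L-type result below rests on this pair of libraries.

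**Figure D1:**
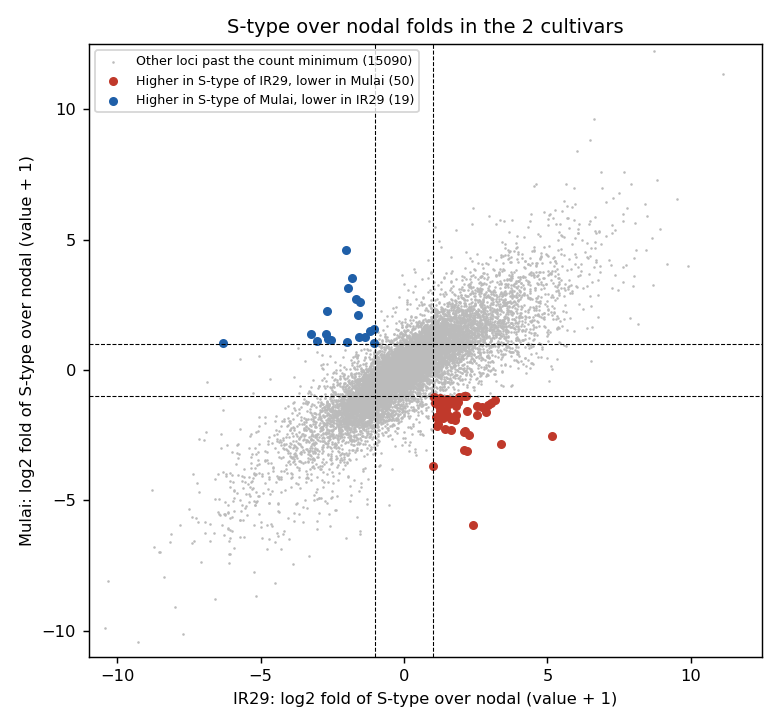
The log2 fold of S-type over nodal roots (value + 1) in IR29 on the x axis and in Mulai on the y axis, 1 point per locus, for the 15159 loci past the count minimum. Dashed lines mark 2-fold; the 50 loci higher in S-type of IR29 lie at the lower right and the 19 loci higher in S-type of Mulai at the upper left, off the diagonal on which most loci lie. In 3 of the opposite loci a fold is set by the added 1, against a library with no read.

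Most loci past 2-fold in both cultivars lay the same way in both. S-type values were at least 2-fold higher than nodal values in both cultivars in 2435 loci (16.1%) and at least 2-fold lower in both in 2312 loci (15.3%). The 50 and 19 opposite loci were therefore few beside these.

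The 50 loci with the higher S-type level in IR29 were mostly of low abundance. Their mean value over the 6 libraries had a median of 62.2 and ran between 17.5 and 2964, whereas the median over all 15159 loci was 157. In IR29 the median value was 122 in S-type (33.1 to 6967), 30.4 in L-type (0 to 1161) and 28.8 in nodal roots (0 to 2945). In Mulai it was 24 in S-type (0 to 1549), 64.1 in L-type (15.4 to 1915) and 75.4 in nodal roots (30.7 to 3249). By the medians, S-type was thus the highest root type in IR29 and the lowest in Mulai. The rule fixed this against nodal roots only. The L-type value was above both others in 5 of the 50 loci in IR29 and below both in 3 in Mulai. The median L-type level lay close to the nodal median in both cultivars. The log2 fold of S-type over nodal had a median of 1.64 in IR29 and of -1.57 in Mulai. It ran between 1.02 and 3.36 in IR29 in the 49 loci with reads in both libraries, and between -3.70 and -1.0 in Mulai, likewise in 49. With 3 reads taken as the floor of the library at 0, the remaining locus was at least 10-fold higher in S-type than in nodal roots of IR29, and the remaining one of Mulai was at least 22.7-fold lower. It reached 4-fold in 18 of the 50 loci in IR29 and in 13 in Mulai, and in 8 loci it did so in both.

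**Figure D2:**
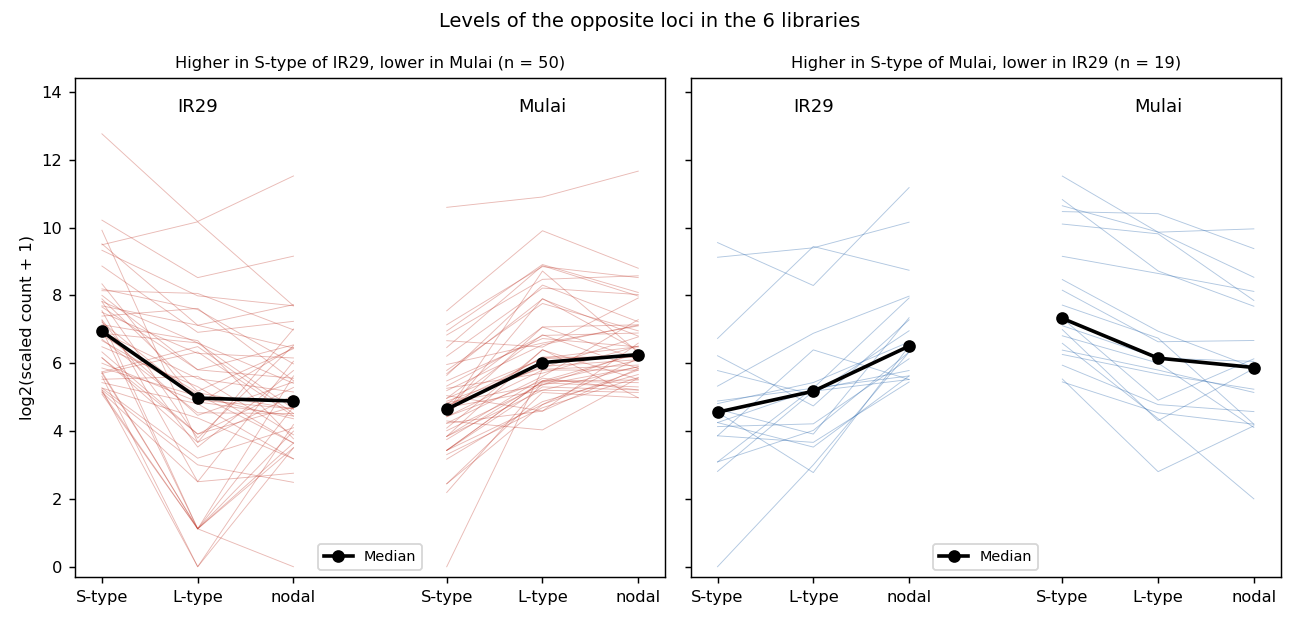
The log2(scaled count + 1) of each opposite locus in the 6 libraries, 1 thin line per locus, for the 50 loci higher in S-type of IR29 (left) and the 19 loci higher in S-type of Mulai (right). The black line joins the medians; the lines connect root types of a cultivar and imply no order. In the left panel the S-type median stands above both others in IR29 and below both in Mulai, and the lowest L-type values are those of IR29.

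Both root types contributed to these opposite folds, in unequal parts. The S-type value was at least 2-fold higher in IR29 than in Mulai in 45 of the 50 loci (10.7% of all 15159), and the nodal value at least 2-fold lower in IR29 in 27 (7.24%). In 22 loci both held, in 23 the nodal values lay within 2-fold of each other, and in 5 the S-type values did. The rule used these libraries, so nothing further is read from these counts.

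XLOC_028703 had the largest opposite folds among the loci of this direction with a larger value of at least 100 in each cultivar, a group of 15. Its value was 202 in S-type, 55.0 in L-type and 46.1 in nodal roots of IR29. In Mulai it was 17.8 in S-type, 47.9 in L-type and 155 in nodal roots. The S-type to nodal ratio was 4.37 in IR29 (95% counting interval 3.05 to 6.39) and 0.115 in Mulai (0.0689 to 0.181). The L-type values of the cultivars had a ratio of IR29 to Mulai of 1.15 (0.763 to 1.72), so that they did not differ beyond counting error.

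XLOC_001271 came next by the same ranking. In IR29 its value was 120.3 in S-type, 45.7 in L-type and 34.6 in nodal roots, and in Mulai 35.6, 92.3 and 139 in the same order. The S-type to nodal ratio was 3.48 in IR29 (2.26 to 5.48) and 0.256 in Mulai (0.179 to 0.360). Here the L-type value was lower in IR29, with a ratio to Mulai of 0.495 (0.334 to 0.719). In both cultivars the L-type value lay between the S-type and the nodal value and closer to nodal.

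**Figure D3:**
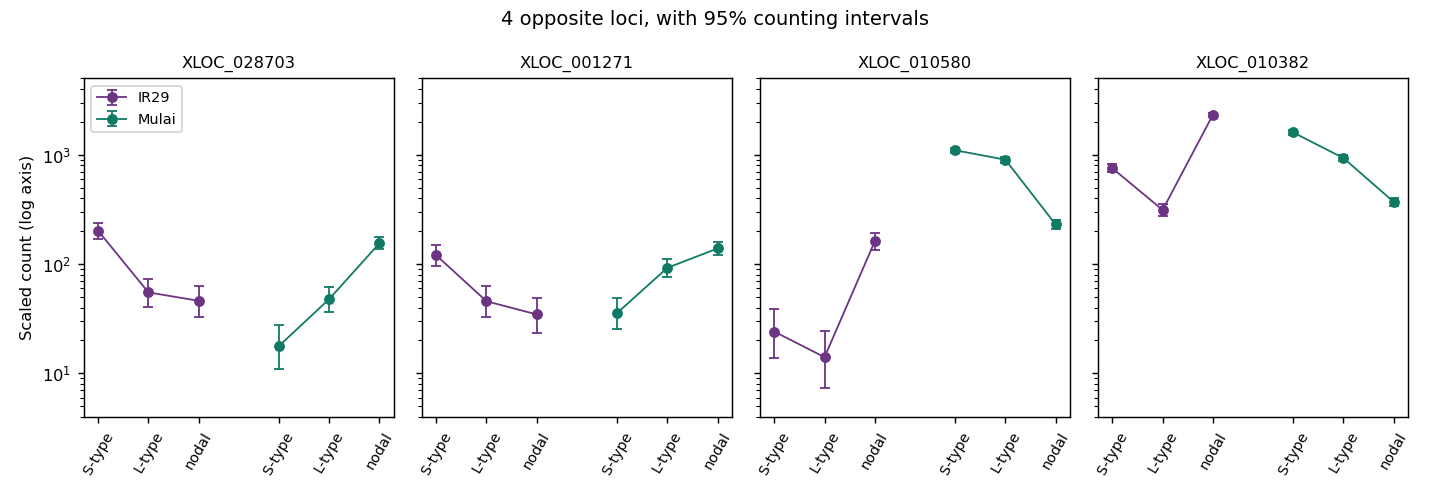
Scaled counts (log axis) of the 4 loci given by identifier in S-type, L-type and nodal roots of IR29 and Mulai, 1 library per point, with 95% Poisson counting intervals. XLOC_028703 and XLOC_001271 are highest in S-type of IR29 and lowest in S-type of Mulai among the libraries of each cultivar; XLOC_010580 and XLOC_010382 are highest in nodal roots of IR29 and in S-type of Mulai.

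In L-type roots, 27 of the 50 loci were at least 2-fold lower in IR29 than in Mulai and 4 were at least 2-fold higher. Over all 15159 loci the corresponding shares were 20.4% and 11.4%. The median log2 fold of IR29 over Mulai in L-type roots was -1.26 in the 50 loci (-5.61 to 2.12) and 0.000214 in all loci. At least 4-fold lower were 20 of the 50, beside 8.42% of all loci. The counting interval of the L-type ratio lay below 1 in 32 loci (35.9% of all) and above 1 in 8 (35.1%). The loci were scarcer than most, and the part of low counts in this share was not tested.

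The sign of the L-type difference between the cultivars was that of the nodal difference in 36 of the 50 loci and that of the S-type difference in 13. In size it was nearer to the nodal than to the S-type difference in 42 of the 50. The rule tied the S-type and nodal differences to each other, and the L-type difference comes from a separate pair of libraries. The S-type difference was above 0 in 49 of the 50 loci and the nodal difference below 0 in 44. The L-type difference was below 0 in 38, and the sign counts largely restate this number. With the signs so fixed, neither the sign counts nor the count by size can show which root type the L-type level follows. Over all loci, where the rule set no signs, the L-type sign matched the nodal sign in 64.2% and the S-type sign in 57.3%. These shares are therefore no matched reference for the 50 loci. In rank over the 50 loci the L-type fold followed both folds alike, with a Spearman's rho of 0.29 with the S-type fold and 0.29 with the nodal fold, against 0.20 and 0.43 over all 15159 loci. These are descriptions across loci measured in the same 6 libraries, and loci are not independent replicates.

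Within IR29 the L-type value was below both the S-type and the nodal value in 24 of the 50 loci, between them in 21 and above both in 5. Among the 6974 loci with S-type over nodal past 2-fold in IR29, these shares were 22.8% (below), 65.7% (between) and 11.5% (above). The 6974 pool 3653 loci higher and 3321 loci lower in S-type, whereas the 50 were all higher, so the shares are not matched in direction. In the 24 loci below both, IR29 had a median of 139 in S-type, 11.7 in L-type and 45.5 in nodal roots, against 29.8, 77.0 and 88.7 in Mulai. L-type values at least 2-fold lower in IR29 than in Mulai were found in 21 of these 24 loci, in 6 of the 21 between and in 0 of the 5 above both, an order that the choice by a low or high IR29 L-type value favours. The value of the IR29 L-type library was under 10 in 12 of the 50 loci; it held 3 reads or fewer in 8 and no read in 2. With 3 reads taken as the floor of that library, the loci with no read were at least 12.2-fold and at least 7.55-fold lower in IR29 than in Mulai L-type roots, where their values were 42.8 and 26.5.

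Within Mulai the L-type value lay between the other root types in 24 of the 50 loci, above both in 23 and below both in 3. Among the 6076 loci with S-type over nodal past 2-fold in Mulai, 85.6% lay between, 9.71% above and 4.66% below. Here too both directions are pooled, 3096 loci higher and 2980 lower in S-type, whereas the 50 were all lower. In the 23 loci above both, Mulai had a median of 22.2 in S-type, 114 in L-type and 70.9 in nodal roots. That S-type was the lowest there follows from the rule and the choice of these loci. In 8 loci the L-type value was below both others in IR29 and above both in Mulai. On the log2 scale the Mulai L-type value was nearer to nodal than to S-type in 42 of the 50 loci, and the IR29 L-type value in 36. Nearer to nodal in both cultivars were 29 loci, a measure that does not make S-type the outlying root type in each of them. The seventh locus in abundance was among them, with 970 in S-type, 11.7 in L-type and 128 in nodal roots of IR29. There the L-type value lay farther from nodal than the S-type value did, on the log2 scale. L-type nearer to S-type, the other outcome, was found in 51.2% of the 6974 loci of IR29 and in 42.8% of the 6076 loci of Mulai.

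**Figure D4:**
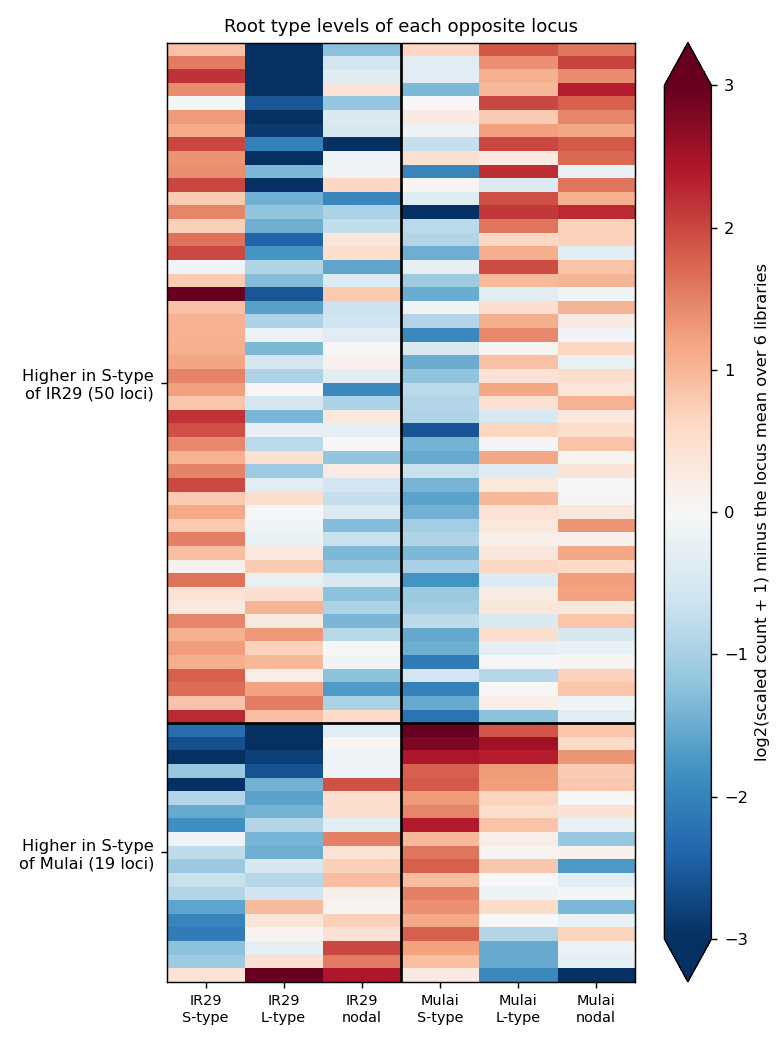
Each row is an opposite locus and each column a library; colour gives log2(scaled count + 1) minus the mean of the locus over the 6 libraries, cut off at 3 in either direction. Rows are ordered within each direction by the L-type fold of IR29 over Mulai, lowest at the top; in the upper rows of each block the IR29 L-type column is the lowest or among the lowest.

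The most abundant locus of this direction had values of 6967 (S-type), 1161 (L-type) and 2945 (nodal) in IR29, and of 1549, 1915 and 3249 in Mulai. Both its folds were close to the limit of the rule, 1.24 in IR29 and -1.07 in Mulai on the log2 scale. The second in abundance was low in L-type roots of IR29 and high in those of Mulai, with 1193 (S-type), 368 (L-type) and 571 (nodal) in IR29 against 186, 960 and 445 in Mulai. The third was instead highest in L-type roots in both cultivars, with 720 in S-type, 1152 in L-type and 206 in nodal roots, against 140, 461 and 368 in Mulai. The sixth was higher in IR29 in each root type, with 644, 253 and 206, against 28.5, 57.3 and 109 in Mulai. The seventh had a high value in S-type roots of IR29 and low ones in the other libraries, with 970, 11.7 and 128, against 25.8, 59.0 and 67.9 in Mulai. Higher in IR29 in all 3 root types were 2 of the 50 loci.

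The 19 loci with the higher S-type level in Mulai had a median mean value of 107 (25.0 to 1208). In IR29 the median value was 22.6 in S-type (0 to 753), 35.1 in L-type (5.86 to 696) and 89.9 in nodal roots (42.7 to 2321). In Mulai it was 159 in S-type (42.7 to 2937), 70.1 in L-type (5.99 to 1361) and 57.7 in nodal roots (3.01 to 998). By the medians, the nodal library was the highest in IR29 and the lowest in Mulai. The L-type value was above nodal in 2 of the 19 loci in IR29 and below it in 5 in Mulai. The log2 fold of S-type over nodal had a median of -1.95 in IR29 and of 1.38 in Mulai (1.02 to 4.59). In IR29 it ran between -3.24 and -1.03 in the 18 loci with reads in both libraries, and the remaining locus, with no read in S-type roots, was at least 17.6-fold lower against the same floor. It reached 4-fold in 9 loci in IR29, in 7 in Mulai and in 2 in both.

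The S-type value was at least 2-fold lower in IR29 than in Mulai in 18 of the 19 loci (8.07% of all loci), and the nodal value at least 2-fold higher in IR29 in 8 (3.94%). Both held in 7 loci. In 2 loci both the S-type and the nodal value were at least 2-fold lower in IR29.

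XLOC_010580 had the largest opposite folds among the 7 loci of this direction with a larger value of at least 100 in each cultivar. Its value was 24.1 in S-type, 14.1 in L-type and 161 in nodal roots of IR29. In Mulai it was 1101 in S-type, 901 in L-type and 230.2 in nodal roots. The S-type to nodal ratio was 0.149 in IR29 (95% counting interval 0.0829 to 0.251) and 4.78 in Mulai (4.26 to 5.38). Nodal values of the cultivars were within 2-fold, and both lateral root types set them apart: the L-type ratio of IR29 to Mulai was 0.0156 (0.00803 to 0.0274). The L-type to nodal ratio was also opposite, at 0.0871 in IR29 (0.0439 to 0.157) and 3.91 in Mulai (3.48 to 4.41).

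XLOC_010382 was the other locus chosen by this ranking and was more abundant. In IR29 its value was 753 in S-type, 313 in L-type and 2321 in nodal roots, and in Mulai 1600.2, 934 and 370.3 in the same order. The S-type to nodal ratio was 0.325 in IR29 (0.294 to 0.358) and 4.32 in Mulai (3.94 to 4.74). As for the locus before it, the L-type to nodal ratio took the direction of the S-type ratio, at 0.135 in IR29 (0.118 to 0.153) and 2.52 in Mulai (2.28 to 2.79). The L-type value was lower in IR29, with a ratio to Mulai of 0.335 (0.292 to 0.383).

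In L-type roots, 11 of the 19 loci were at least 2-fold lower in IR29 than in Mulai and 3 at least 2-fold higher, beside the same 20.4% and 11.4% of all loci. The median log2 fold of IR29 over Mulai was -1.56 (-5.95 to 5.07). The counting interval of the L-type ratio lay below 1 in 12 loci and above 1 in 3, beside the 35.9% and 35.1% of all loci. The L-type difference had the sign of the S-type difference in 14 of the 19 loci and of the nodal difference in 10. Over all loci, where the rule set no signs, these shares were 57.3% and 64.2%. In the 19 loci the S-type difference was below 0 in 18 and the L-type difference in 13. The match with the S-type sign therefore largely restates the low L-type values of IR29. In rank the L-type difference followed both folds, with a Spearman's rho of 0.58 with the S-type fold and 0.68 with the nodal fold across the 19 loci. Over all 15159 loci rho was 0.20 and 0.43. Here too the rule tied the S-type and nodal differences to each other, and loci are not independent replicates. The rho values therefore cannot show which root type the L-type level follows. L-type levels were thus lower in IR29 in most loci of both directions (38 of the 50 and 13 of the 19, of any size, beside 49.9% of all loci). The S-type level, by contrast, was higher in IR29 in 49 of the 50 and lower in IR29 in 18 of the 19.

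Within IR29 the L-type value of the 19 loci lay between S-type and nodal in 10, below both in 7 and above both in 2. It was nearer to S-type in 13. Among the 6974 loci of IR29, which pool both directions, the shares were 65.7% (between), 22.8% (below), 11.5% (above) and 51.2% (nearer to S-type). Within Mulai the L-type value lay between in 14 and below both in 5, and it was nearer to S-type in 8. Among the 6076 loci of Mulai, likewise pooled, the shares were 85.6%, 4.66% and 42.8%. In the 7 loci below both in IR29, the medians were 24.1 (S-type), 14.1 (L-type) and 123 (nodal) in IR29, against 569, 400 and 204 in Mulai. By the medians, both laterals lay below nodal roots in IR29 and above them in Mulai. The rule and the choice of these loci fixed this for both laterals of IR29 and for S-type of Mulai. Only the Mulai L-type value was free, and it lay between S-type and nodal in 6 of the 7 loci and below both in 1. The highest L-type fold of IR29 over Mulai was that of the seventh locus in abundance, with 105 in S-type, 696 in L-type and 428 in nodal roots of IR29, against 95.2, 19.7 and 3.01 in Mulai. Its S-type values were nearly equal in the cultivars, and its L-type and nodal values were far apart.

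**Figure D5:**
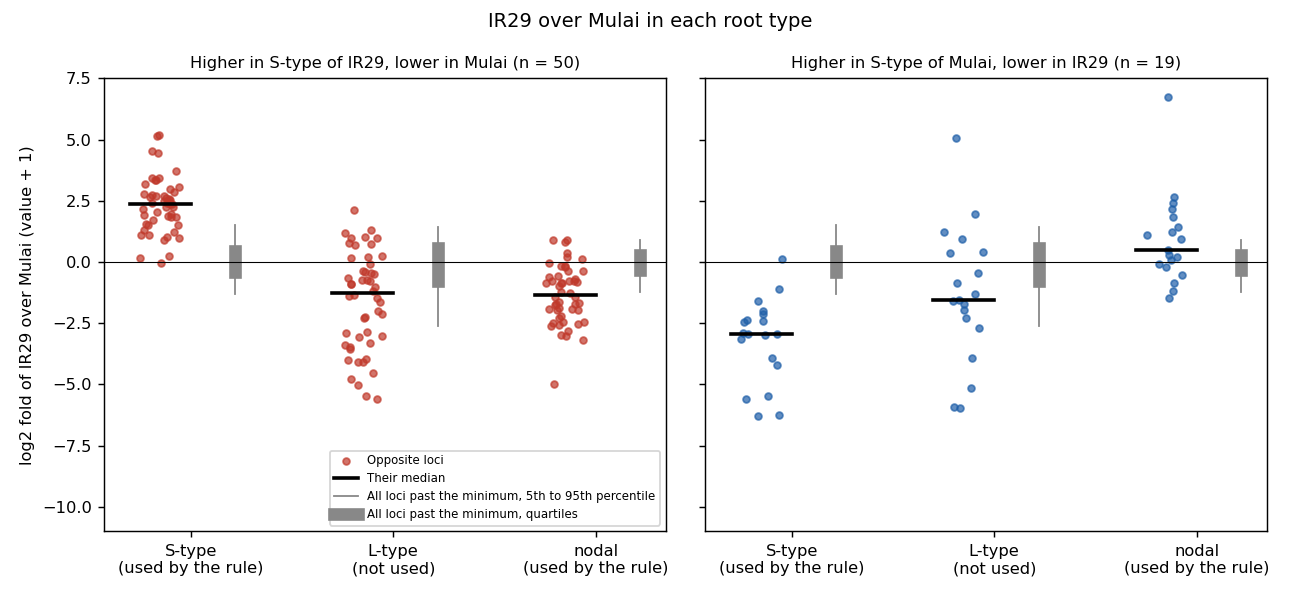
The log2 fold of IR29 over Mulai (value + 1) in S-type, L-type and nodal roots, 1 point per opposite locus, with the median as a black bar; grey bars give the quartiles and the range between the 5th and 95th percentile of the 15159 loci. The L-type median is -1.26 in the 50 loci on the left and -1.56 in the 19 loci on the right, below 0 in both panels, while the S-type medians lie on opposite sides of 0.

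The L-type over nodal fold shares the nodal library with the rule and is given as a description. In IR29 it was at least 2-fold higher in 15 of the 50 loci and in 0 of the 19 (16.8% of all loci), and at least 2-fold lower in 16 and 13 (20.4%). In Mulai it was at least 2-fold higher in 6 of the 50 and 8 of the 19 (10.9%), and at least 2-fold lower in 7 and 3 (7.3%). In the 50 loci it was past 2-fold higher in IR29 and lower in Mulai in 3 (0.125% of all loci), and past 2-fold the other way in 2 (0.798%). In the 19 loci it was lower in IR29 and higher in Mulai in 5 (0.798%), and the other way in 0. These 5 included 4 of the 5 most abundant loci of that direction. In the 50 loci the median log2 fold of L-type over nodal was 0.08 in IR29 and -0.07 in Mulai, and in the 19 loci it was -1.88 in IR29 and 0.53 in Mulai.

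The S-type over L-type fold shares the S-type library with the rule. It was at least 2-fold higher in IR29 in 37 of the 50 loci and 3 of the 19 (21.7% of all loci), and at least 2-fold lower in 0 and 6 (13.2%). In Mulai it was at least 2-fold higher in 0 of the 50 and 9 of the 19 (10.5%), and at least 2-fold lower in 40 and 0 (12.9%). It was past 2-fold higher in IR29 and lower in Mulai in 27 of the 50 loci (2.26% of all loci). In the 19 loci it was past 2-fold lower in IR29 and higher in Mulai in 4 (0.317%). The median log2 fold of S-type over L-type in the 50 loci was 2.12 in IR29 and -1.67 in Mulai. In the 19 loci it was -0.38 in IR29 and 0.97 in Mulai. With L-type in place of nodal roots as the comparison, S-type roots were thus past 2-fold in opposite directions in 54% of the first group and in 21.1% of the second.

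Cultivar and L-type contrasts were fitted over the whole table in an additive model of cultivar and root type (limma on log2(value + 1), Benjamini-Hochberg adjustment over 20316 loci, all 69 loci included). For IR29 against Mulai over the 3 root types, 1500 loci passed at an adjusted p under 0.05 (7.38%), 582 of them higher (2.86%) and 918 lower (4.52%) in IR29. The cultivar contrast averages the 3 root types, so that 4 of its 6 values per locus are those that chose the 69 loci, and its calls among them are given as a description. Of the 69 loci 2 passed, both lower in IR29 and both from the group higher in S-type of Mulai. The first of these had values of 28.6 (S-type), 37.5 (L-type) and 242 (nodal) in IR29, against 1420, 1361 and 666 in Mulai, a fitted log2 change of -4.06. The other had values of 22.6, 5.86 and 89.9 in IR29, against 1816, 422 and 204 in Mulai, a fitted log2 change of -4.46. Both were lower in IR29 in 3 of 3 root types. At an unadjusted p under 0.05 stood 12 of the 69, beside 20.3% of all loci. The residual spread of this model contains the opposite folds by which the 69 loci were chosen, which lowers the number that can pass. With a further term for the difference of the S-type response between the cultivars, 8 of the 69 passed (2 higher, 6 lower in IR29), beside 7.8% of all loci. The calls depended on the setting. Of the 69 loci, 1 was called with a pseudocount of 0.5 (beside 1476 of all 20316) and 1 with TMM scaling (1499 of 20316). The filter at 50 left 51 of the 69 and called 1 (726 of 14707). A pseudocount of 5 called 3 (1469 of 20316), no filter 5 (1975 of 28917) and DESeq2 8 (2031 of 20316). edgeR called 0 of the 69 (9 at an unadjusted p under 0.05), beside 1092 of 20316. Without the IR29 L-type library 0 were called, beside 1118 of 19958 loci, and without that of Mulai 0, beside 1157 of 19890.

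L-type roots were also compared with the mean of S-type and nodal roots over both cultivars. No locus passed in limma (0 of 20316, 0%), with 1641 loci (8.08%) and 2 of the 69 at an unadjusted p under 0.05. The smallest adjusted p among the 69 was 0.603. This contrast also takes in the S-type and nodal values that chose the 69 loci, so its results among them are a description. Its residual spread likewise contains their opposite folds, which lowers the number that can pass. edgeR called 0 loci, and DESeq2 called 47, of which 0 were among the 69.

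The rule left some loci close to its limit. Among loci higher in S-type of IR29, the nearest inside had S-type and nodal values of 52.6 and 11.5 in IR29 and of 43.6 and 88.4 in Mulai, the smaller of its folds being 2.003. The nearest locus outside had 43.6 and 8.07 in IR29 and 15.1 and 31.3 in Mulai, with a smaller fold of 1.9999. In the other direction the nearest inside had 0 and 79.6 in IR29 and 75.6 and 36.7 in Mulai (2.03), and the nearest outside had 15 and 39.2 in IR29 and 59.6 and 29.5 in Mulai (1.99). A smaller fold between 1.8 and 2 was found in 32 further loci of the first direction and 7 of the second. The smaller fold was under 2.5 in 24 of the 50 and 10 of the 19 loci.

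Depth set the precision of these folds. The smallest read number among the S-type and nodal libraries of a locus had a median of 21 in the 50 loci and 12 in the 19, beside 71 in all 15159. The 95% counting interval of the S-type to nodal ratio left out 1 in both cultivars in 50 of the 50 and 19 of the 19 loci, which the fold and count minimum of the rule all but fixed. It lay wholly past 2-fold in both cultivars in 15 and 5 loci. These intervals hold no variation between plants, dissections or library preparations, which could not be assessed with 1 library of each kind.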

How the data were processed

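Strand-specific mRNA libraries of 3 root types from 2 cultivars were analysed, 1 library for each of the 6 combinations. The submitters' processing notes list the build IRGSP-1.0 and the tools Cuffdiff 2.2.1, Cufflinks 2.2.1, TopHat2 2.0.11, Bowtie and Trimmomatic 0.32. For options, gene models and shared reads the entry is not given in the sources used here; overlapping or near-identical loci are therefore uncertain. The authors deposited 1 signal per locus and library, a scaled fragment count per the file headers; its values are whole numbers multiplied by 1 factor per library. Dividing by that factor gave whole reads in 100% of nonzero values (tolerance 0.1 read). Not used were 24 columns of variance and status. Of 38042 identifiers, 0 were found in RefSeq's gene table (39387 rows), so names, coordinates and sequences are not given here.

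The loci and the choices below were made with earlier results of these data known. The 2 loci named in each direction had the largest smaller-of-both absolute log2 fold among loci with a larger value of at least 100 in each cultivar. Any other locus is described by its rank in mean value and was singled out after its values were seen. Ratio intervals are exact binomial (95%), and intervals of single values are exact Poisson; both cover counting error only. Because the unit was a signal, limma 3.58.1 (R 4.3.3) was run on log2(value + 1) with a variance trend, on loci with at least 10 in at least 2 libraries, leaving 2 residual degrees of freedom. Whether libraries came from separate plants is not stated, so the spread behind the p-values may be technical. Alternatives were edgeR 4.0.16 (quasi-likelihood, TMM) and DESeq2 1.42.0, both run with recovered reads, other pseudocounts, filters and scaling, thinned reads, and leaving out each library.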

Additional observations from a re-analysis of the deposited data

Results flagged for a closer look

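The L-type over nodal folds of some loci also ran in opposite directions in IR29 and Mulai, past 2-fold in each. With single libraries behind each fold, the difference was not tested. It was seen in 5 of the 19 loci higher in S-type of Mulai and in 3 of the 50 loci higher in S-type of IR29, each time in the direction of the S-type fold. In 2 of the 50 loci the L-type folds were opposite the other way, lower in IR29 and higher in Mulai. The more abundant of these 2 had values of 238 (S-type), 35.1 (L-type) and 85.3 (nodal) in IR29, against 22.2, 421 and 78.7 in Mulai. All of these folds share the nodal libraries with the rule.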

How the results depend on the processing

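Of the 50 and 19 loci, 15 and 7 were left with a larger count of at least 100 in each cultivar and 8 and 2 with a fold of at least 4, which are stricter by construction. Counts stayed within 1.5 times otherwise: a pseudocount of 5 gave 44 and 18, TMM scaling 53 and 17 (47 and 17 of them among the 50 and 19), and reads thinned to the smallest total 54 and 25, of which 37 and 14 were among the 50 and 19. A minimum of 30 recovered reads, chosen after the data were seen, gave 51 and 19, with 42 and 19 shared. With 4-fold in place of 2-fold, L-type values higher in IR29 numbered 2 in place of 7 and lower ones 26 in place of 38. Between IR29 and Mulai 1500 loci were called; a filter at 50 gave 726 calls, and leaving out 1 library gave 1046 to 1690. On recovered reads edgeR called 1092 and DESeq2 2031. Without the S-type library of IR29, 12 of the 69 loci were called, beside 1690 of all 19860 tested. Without that of Mulai 12 were called, beside 1634 of 19953. Of the 2 loci called with all libraries, 1 was among the 12 each time. Without the nodal library of either cultivar 5 were called, both of these 2 among them. All loci called were then 1046 of 19741 (IR29 left out) and 1120 of 19642 (Mulai left out). With an S-type or nodal library left out, the residual spread no longer contains the opposite folds. For L-type against the mean of the others (0 loci), DESeq2 gave 47 and leaving out 1 library 0 to 1. The cause was not tested. The 4 loci given by identifier kept the direction of both folds, past 2-fold, with a pseudocount of 5, TMM scaling and thinned reads, tried after the data were seen. No paired analysis was possible because each combination of cultivar and root type has 1 library and the groups share fewer than 2 replicate numbers.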
